A study of Mus musculus with 8 samples.

Results

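The transcripts of 10 genes of the solute carrier superfamily, listed as amino acid transporters, were compared between DADA-treated and DMSO-treated mouse CD8+ T cells. The genes were found by symbol (*Slc7a5*, *Slc3a2*, *Slc1a4*, *Slc1a5*, *Slc7a1*, *Slc7a6*, *Slc7a11*, *Slc38a1*, *Slc38a2* and *Slc43a3*), and all 10 were present among the 22520 genes and assembled transcripts measured. The label holds for 9 of them as transporters, or transporter subunits, of amino acids, whereas *Slc43a3* encodes a carrier best known for purine nucleobases. Splenic CD8+ T cells of WT mice were kept under anti-CD3 and anti-CD28 antibodies with IL-2 until harvest on day 6, and both groups shared this persistent stimulation. From day 3, the cells received 40 µM DADA (diisopropylamine dichloroacetate, an inhibitor of the pyruvate dehydrogenase kinases) or the solvent DMSO. Each treatment is represented by 4 bulk RNA-seq libraries. The methods list male C57BL/6J mice aged 6 to 8 weeks without tying them to these cultures, and the genotype field of the labels reads control for DMSO and model for DADA and names no allele. The cells were stimulated in vitro. Whether the replicates came from separate animals or separate cultures is not given in the sources used here. The p-values therefore measure the spread between these libraries.

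The values are FPKM, fragments scaled to transcript length and library size, so levels can be compared between genes. All 10 genes passed the filter on low values, 1 FPKM or more in 4 or more of the 8 libraries, as did 10666 genes in all. Differences were tested on log2(FPKM + 1) with limma over these 10666 genes with Benjamini-Hochberg adjustment, and a gene was called at an adjusted p under 0.05. A log2 fold change on this scale understates the change of low genes. Summed over all genes, the DMSO libraries held 450473 to 456939 FPKM and the DADA libraries 438299 to 449480 FPKM. Read depth is not given in the table. The 5 CD8 T cell markers measured (*Cd8a*, *Cd8b1*, *Cd3d*, *Cd3e* and *Cd3g*) summed to 674 to 680 FPKM with DMSO and to 776 to 805 FPKM with DADA, and the part of this difference in the results was not tested. The myeloid markers summed to at most 0.188 FPKM in any library, those of CD4 T cells to at most 0.718 and those of erythroid cells to at most 0.426. Among the B cell markers, *Cd79b* reached 3.47 FPKM and the others stayed under 1 FPKM. Of the NK cell markers, *Eomes*, which CD8 T cells also express, ranged from 13.3 to 14.1 FPKM in the DMSO libraries and from 9.96 to 10.96 FPKM in the DADA libraries, and *Ncr1* and *Klrb1c* reached at most 0.249 FPKM.

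Activated T cells grow on imported amino acids, and their transporters fall into families with distinct modes of transport. The heavy chain CD98, encoded by *Slc3a2*, carries light chains such as LAT1 (*Slc7a5*), y+LAT2 (*Slc7a6*) and xCT (*Slc7a11*) to the cell surface, where each exchanges one amino acid for another. ASCT1 (*Slc1a4*) and ASCT2 (*Slc1a5*) exchange small neutral amino acids, SNAT1 (*Slc38a1*) and SNAT2 (*Slc38a2*) take up glutamine and other neutral amino acids with sodium, and CAT1 (*Slc7a1*) imports arginine and lysine. SNAT2, xCT, ASCT1 and CD98 are known targets of the amino acid response through ATF4, and xCT is also known as a target of NRF2.

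DADA changed these transcripts in both directions and mostly by small amounts. Of the 10 genes, 2 were called higher with DADA (*Slc38a2* and *Slc7a5*), 6 were called lower (*Slc43a3*, *Slc7a11*, *Slc7a6*, *Slc1a5*, *Slc38a1* and *Slc1a4*) and 2 were not called (*Slc3a2* and *Slc7a1*). Over all 10666 genes tested, 66.2% were called, 30.9% higher and 35.3% lower, so a call alone does not set these genes apart. The excess of lower calls over all genes depended on how the libraries were scaled, as given in the last section. The groups did not overlap for 7 of the 10 genes, 2 of them higher and 5 lower with DADA, against 60.6% of all genes tested, 28.4% higher and 32.2% lower. The median log2 fold change of the 10 genes was -0.12, beside -0.02 over all genes tested, and the median size of their changes was 0.19, beside 0.21. Of the 10 genes, *Slc38a2* alone changed by at least 0.5 on the log2 scale of FPKM + 1, a size that 15.7% of all genes tested passed with a call. *Slc7a11* was at -0.39 on this scale, at -0.499 with a pseudocount of 0.1 and at -0.51 with quantile normalization. In bulk RNA, a change in the share of cells that express a gene and a change in RNA per cell cannot be told apart.

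**Figure D1:**
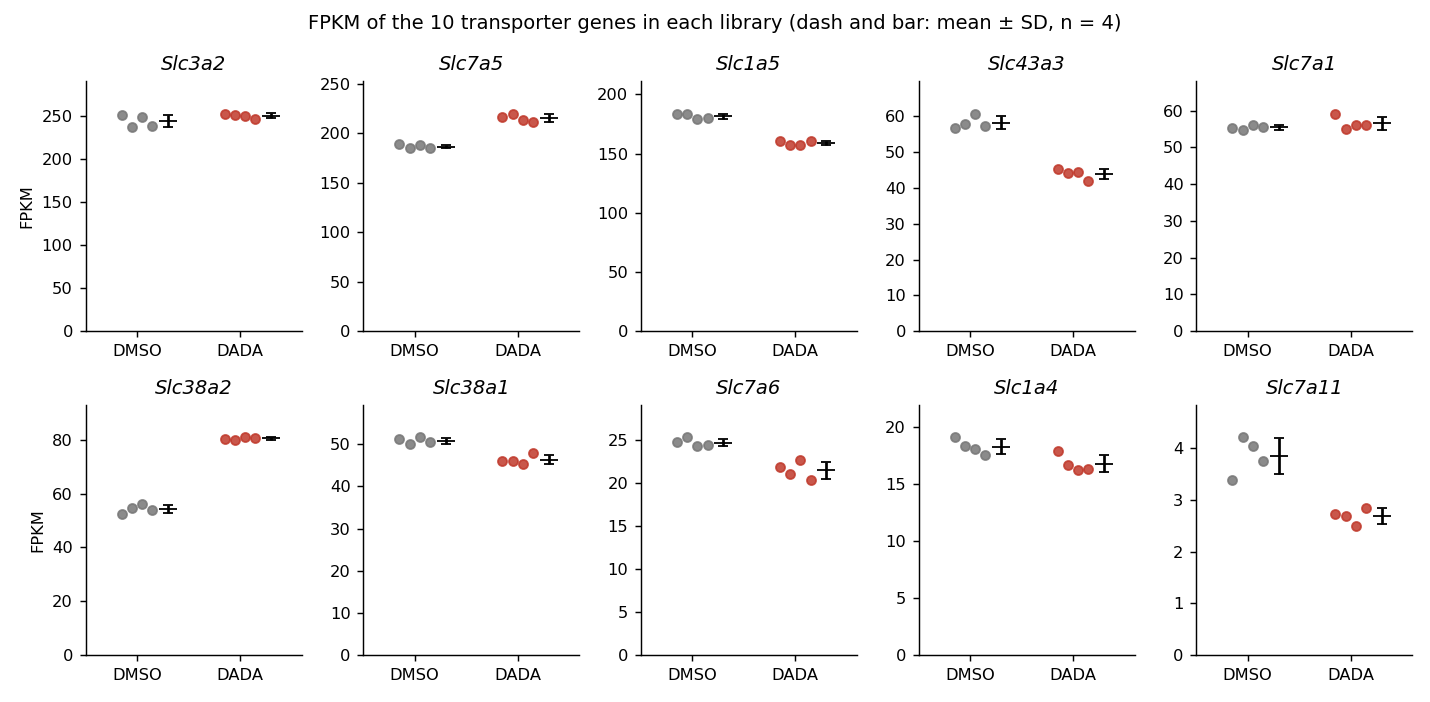
FPKM (vertical axes, each starting at 0) of the 10 transporter genes in 4 DMSO (grey) and 4 DADA (red) libraries, with the mean and SD beside the points. *Slc38a2* lies between 80.1 and 81.0 FPKM with DADA, above all DMSO libraries, whereas the groups overlap for *Slc3a2*, *Slc7a1* and *Slc1a4*.

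**Figure D2:**
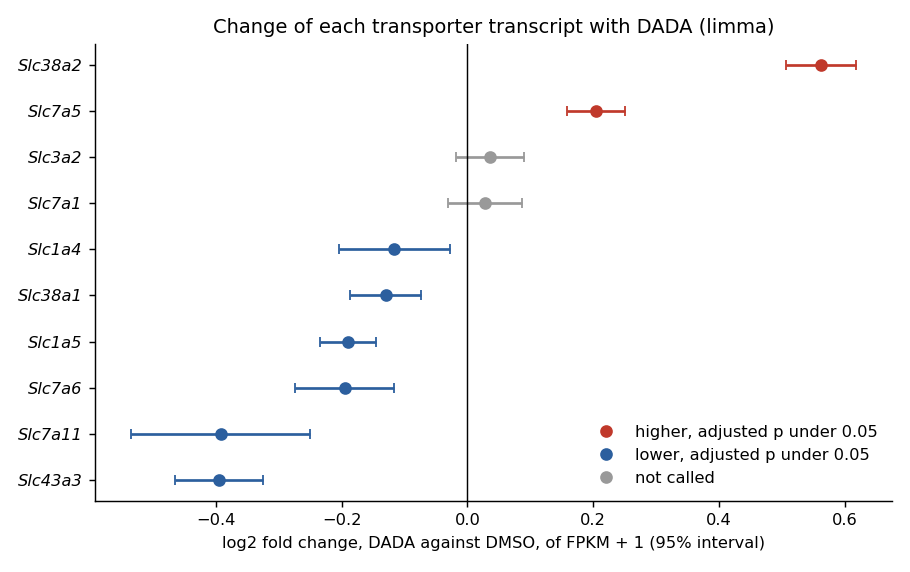
Log2 fold change of FPKM + 1 (horizontal axis) of DADA against DMSO for each gene, with its 95% interval from limma. The changes run from -0.40 for *Slc43a3* to 0.56 for *Slc38a2*, and the intervals of *Slc3a2* and *Slc7a1* include 0.

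Promoter sequences were available for 6 of the 10 genes (*Slc7a11*, *Slc7a1*, *Slc7a6*, *Slc1a4*, *Slc38a2* and *Slc3a2*; RefSeq, GRCm38.p6). They were searched on both strands for the core of the C/EBP-ATF response element that ATF4 is known to bind, TGATGNAA, since transporters of the amino acid response moved in opposite directions here. Shown are the gene that rose most, whose window holds no such match, and both genes with a match, each from 250 bases before to 30 bases after the annotated start, 5′ to 3′ on the minus strand, with the matches in capitals. The windows are chr15:96699699-96699978 for *Slc38a2*, chr3:50443584-50443863 for *Slc7a11* and chr11:20332684-20332963 for *Slc1a4*.
Slc38a2: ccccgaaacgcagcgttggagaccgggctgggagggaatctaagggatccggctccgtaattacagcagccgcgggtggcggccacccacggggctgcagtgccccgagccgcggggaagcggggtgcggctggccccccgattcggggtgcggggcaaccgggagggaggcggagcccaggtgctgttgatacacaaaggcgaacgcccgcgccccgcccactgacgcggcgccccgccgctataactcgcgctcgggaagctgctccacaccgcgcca
Slc7a11: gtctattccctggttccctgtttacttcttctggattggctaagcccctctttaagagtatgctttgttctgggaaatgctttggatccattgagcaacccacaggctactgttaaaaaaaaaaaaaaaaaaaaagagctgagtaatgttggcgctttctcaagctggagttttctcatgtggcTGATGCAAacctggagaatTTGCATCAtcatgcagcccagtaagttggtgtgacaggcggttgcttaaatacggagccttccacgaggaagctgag
Slc1a4: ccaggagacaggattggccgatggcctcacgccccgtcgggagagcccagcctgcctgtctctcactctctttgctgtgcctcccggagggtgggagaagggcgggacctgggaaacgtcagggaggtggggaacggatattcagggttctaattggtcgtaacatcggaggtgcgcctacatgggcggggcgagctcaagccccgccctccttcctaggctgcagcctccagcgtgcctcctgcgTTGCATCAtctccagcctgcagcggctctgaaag
In *Slc7a11* the 2 matches face each other and begin 66 and 47 bases before the start, and in *Slc1a4* the only match begins 4 bases before the start and runs across it. Both genes were called lower with DADA, as were 35.3% of all genes tested. *Slc7a6*, also searched and without a match, was called lower too, and *Slc3a2* and *Slc7a1*, without a match, were not called. A link between the motif and the direction of change was not tested. In the full windows, from 250 bases before to 50 after the start, the motif occurred in 3.97% of all 32851 promoters. The core of the antioxidant response element, TGACNNNGC, occurred in windows of *Slc7a1*, *Slc7a6* and *Slc38a2* and in 12.4% of all promoters, and the E-box CACGTG in none of the 6 genes and in 7.15% of all promoters. The 6 genes had 8 windows, since *Slc7a1* and *Slc7a6* each had an additional window. The windows of *Slc7a6* overlap and hold the same site. The shares count windows rather than genes, so a count of genes cannot be set against them. A match in letters is a description of the window and not evidence of binding, and a window without a match says nothing of sites elsewhere.

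*Slc38a2* (ENSMUSG00000022462), which encodes the sodium-coupled neutral amino acid transporter SNAT2, rose the most of the 10 genes. It was at 52.3, 54.7, 56.1 and 53.9 FPKM in DMSO 1 to 4 and at 80.4, 80.1, 81.0 and 80.9 FPKM in DADA 1 to 4. The DADA libraries lay closer together than the DMSO libraries and were all far above them. The mean went from 54.3 ± 1.599 to 80.6 ± 0.451 FPKM (SD, n = 4 each), an increase of 48.5%. Its log2 fold change was 0.56 (standard error, SE, 0.0249, limma adjusted p = 2.81e-08), and 18.7% of all called genes changed by more.

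Its paralog *Slc38a1* (ENSMUSG00000023169), which encodes SNAT1, moved the other way. The libraries of DMSO 1 to 4 were at 51.2, 50.05, 51.7 and 50.5 FPKM and those of DADA 1 to 4 at 46.1, 46.1, 45.4 and 48.1 FPKM. The highest DADA library lay just under the lowest DMSO library. Its log2 fold change was -0.13 (SE 0.0251, limma adjusted p = 0.00113), and the mean FPKM fell by 8.76%. *Slc38a1* and *Slc38a2* are neighbours among the protein-coding genes of chromosome 15. Their ratio within a library, which does not depend on how the library was scaled, went from 0.938 ± 0.0292 with DMSO to 0.576 ± 0.0139 with DADA (SD, n = 4 each). The log2 ratio differed by -0.70 between the groups (two-sided exact permutation test over 70 assignments, p = 0.0286, the smallest it can give, and 0.0343 after adjustment over 6 pairs). As 1 gene was lower and the other higher in every DADA library, the ratios had to separate. This p-value therefore adds nothing to the values of each gene. The 2 transcripts were nearly equal with DMSO and clearly unequal with DADA.

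*Slc7a5* (ENSMUSG00000040010), the LAT1 light chain that brings in leucine and other large neutral amino acids, was the other gene that rose. It was at 189, 185, 188 and 185 FPKM in DMSO 1 to 4 and at 217, 220, 213 and 211 FPKM in DADA 1 to 4, with no overlap. The mean rose by 15.3%, from 187 ± 1.99 to 215 ± 3.84 FPKM (SD, n = 4 each), and the log2 fold change was 0.20 (SE 0.0203, limma adjusted p = 1.03e-05). This is a smaller change than the median called gene showed, 0.31 in size, although it rests on one of the most abundant transcripts, at the 97.2th percentile of genes tested in DMSO.

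*Slc3a2* (ENSMUSG00000010095), the CD98 heavy chain, was the most abundant of the 10 transcripts in both groups. The libraries of DMSO 1 to 4 were at 252, 238, 248.8 and 239 FPKM and those of DADA 1 to 4 at 253, 252, 251 and 246 FPKM. The DADA libraries lay within or just above the range of the DMSO libraries, which spread more. Its log2 fold change was 0.04, with a 95% interval from -0.02 to 0.09 (limma, adjusted p = 0.206), and it was called only when each library was rescaled to the same total (0.07, limma, adjusted p = 0.0272).

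The remaining light chains of CD98 among the 10 genes fell. *Slc7a6* (ENSMUSG00000031904), which encodes y+LAT2, an exchanger of arginine for glutamine or leucine, was at 24.8, 25.3, 24.4 and 24.4 FPKM in DMSO 1 to 4 and at 21.8, 21.1, 22.7 and 20.4 FPKM in DADA 1 to 4. The groups did not overlap, and the log2 fold change was -0.20 (SE 0.0353, limma adjusted p = 7.28e-04). *Slc7a11* (ENSMUSG00000027737), which encodes the cystine and glutamate exchanger xCT, was the least abundant of the 10, at 3.39, 4.21, 4.03 and 3.76 FPKM in DMSO 1 to 4 and at 2.72, 2.69, 2.49 and 2.85 FPKM in DADA 1 to 4. Its mean fell by 30.1%, the largest relative decrease of the 10 genes, with a spread between DMSO libraries of 9.26% of the mean. The log2 fold change was -0.39 (SE 0.0635, limma adjusted p = 3.46e-04), whereas a pseudocount of 0.1 gave -0.50.

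Relative to the heavy chain, the light chains therefore shifted. The ratio of *Slc7a5* to *Slc3a2* rose from 0.765 ± 0.0139 to 0.860 ± 0.00988, whereas that of *Slc7a6* to *Slc3a2* fell from 0.101 ± 0.00394 to 0.0858 ± 0.00343 and that of *Slc7a11* to *Slc3a2* from 0.0158 ± 0.00175 to 0.0107 ± 6.67e-04 (SD, n = 4 each). The ratio of *Slc7a6* to *Slc7a5* fell from 0.132 ± 0.00304 to 0.0998 ± 0.00486. For these 4 ratios the groups did not overlap, with log2 differences of 0.17, -0.24, -0.55 and -0.41 (two-sided exact permutation tests, p = 0.0286 each and 0.0343 after adjustment over 6 pairs). For *Slc7a6* to *Slc7a5* this outcome was fixed in advance, since the groups did not overlap for either gene and the genes moved in opposite directions. The 3 light chains together were at 213 to 217 FPKM with DMSO and at 235 to 244 FPKM with DADA, or 0.882 ± 0.0190 and 0.957 ± 0.00794 of the *Slc3a2* level. *Slc7a7*, *Slc7a8* and *Slc7a10*, further light chains of CD98, together reached at most 0.852 FPKM in any library.

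**Figure D3:**
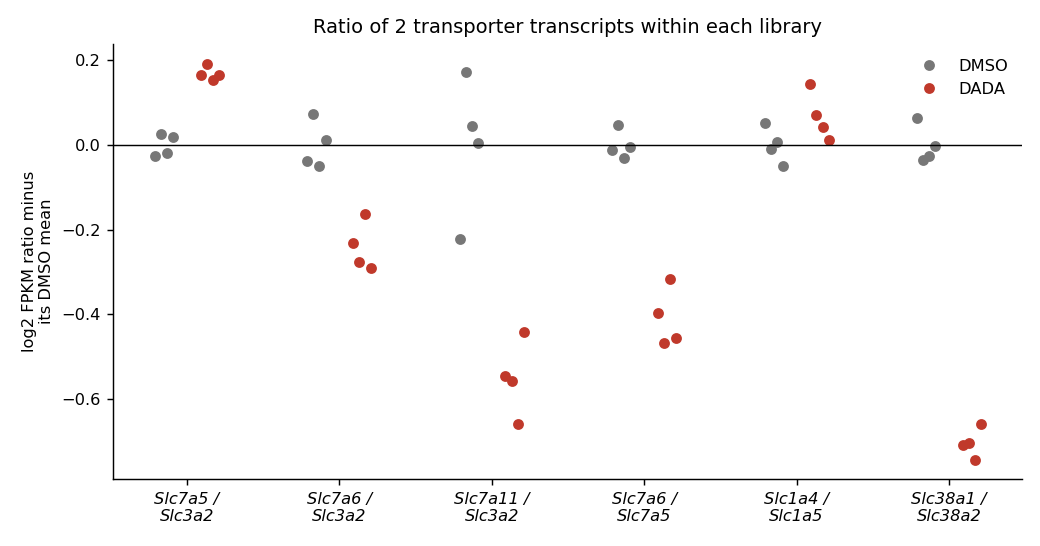
Log2 ratio of the FPKM of 2 genes in each library, relative to the mean of the DMSO libraries (vertical axis), for 6 pairs, with 4 DMSO (grey) and 4 DADA (red) libraries each. The ratio of *Slc38a1* to *Slc38a2* is the lowest with DADA, with a difference of -0.70, and the groups overlap for *Slc1a4* to *Slc1a5* alone.

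The exchangers of small neutral amino acids were both lower with DADA. *Slc1a5* (ENSMUSG00000001918), which encodes ASCT2, the glutamine and serine exchanger, was at 183, 184, 179 and 180 FPKM in DMSO 1 to 4 and at 161, 157, 157 and 161 FPKM in DADA 1 to 4. The groups were well separated, and the mean fell by 12.4% (log2 fold change -0.19, SE 0.0196, limma adjusted p = 1.38e-05). *Slc1a4* (ENSMUSG00000020142), which encodes ASCT1, was at 19.1, 18.3, 18.1 and 17.5 FPKM in DMSO 1 to 4 and at 17.8, 16.6, 16.2 and 16.3 FPKM in DADA 1 to 4. DADA 1 was above DMSO 4, so the groups overlapped. Its call was the weakest of the 8 (log2 fold change -0.12, SE 0.0394, limma adjusted p = 0.0243; two-sided exact permutation test on the FPKM, p = 0.0571), and it was lost with 2 other scalings and without any 1 of 5 libraries. The ratio of *Slc1a4* to *Slc1a5* was 0.1005 ± 0.00296 with DMSO and 0.105 ± 0.00412 with DADA, and its log2 difference of 0.07, with an SD between libraries of 0.0497, did not pass the test (two-sided exact permutation test, p = 0.114, the same after adjustment over 6 pairs).

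*Slc7a1* (ENSMUSG00000041313), which encodes CAT1, was at 55.2, 54.7, 56.2 and 55.6 FPKM in DMSO 1 to 4 and at 59.2, 55.1, 56.0 and 56.1 FPKM in DADA 1 to 4. Only DADA 1 lay outside the range of the DMSO libraries. The log2 fold change was 0.03, with a 95% interval from -0.03 to 0.09 (limma, adjusted p = 0.369), and without DADA 1 it was 0.01. Another cationic transporter, *Slc7a3* (CAT3), which is not among the 10 genes, went from 61.0 ± 3.28 to 36.7 ± 0.732 FPKM (SD, n = 4 each; log2 fold change -0.72, limma, adjusted p = 8.33e-08). The mean of *Slc7a3* was above that of *Slc7a1* with DMSO and below it with DADA.

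*Slc43a3* (ENSMUSG00000027074), the nucleobase carrier, was at 56.7, 57.9, 60.7 and 57.1 FPKM in DMSO 1 to 4 and at 45.3, 44.1, 44.4 and 42.0 FPKM in DADA 1 to 4. Every DADA library was far below the lowest DMSO library. Its mean fell by 24.4%, with a log2 fold change of -0.40 (SE 0.0313, limma adjusted p = 1.93e-06). That of *Slc7a11*, at a much lower level, was -0.39 on this scale. With a pseudocount of 0.1 the values were -0.40 for *Slc43a3* and -0.50 for *Slc7a11*.

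The order of the transcript levels per length was led by *Slc3a2*, *Slc7a5* and *Slc1a5* in both groups. These 3 genes held 69.8% ± 0.418 of the summed FPKM of the 10 genes with DMSO and 69.9% ± 0.2505 with DADA (SD, n = 4 each). *Slc7a6*, *Slc1a4* and *Slc7a11* were the lowest in both. The order changed in the middle. With DMSO it ran from *Slc43a3* (58.1 FPKM) over *Slc7a1* (55.4) and *Slc38a2* (54.3) to *Slc38a1* (50.9), and the ranges of *Slc7a1* and *Slc38a2* overlapped. With DADA, *Slc38a2* came first of these 4 (80.6 FPKM), followed by *Slc7a1* (56.6), *Slc38a1* (46.4) and *Slc43a3* (43.9), and no neighbours in the order of the 10 genes overlapped. The share of *Slc38a2* in the sum went from 6.18% ± 0.192 to 9.02% ± 0.123. The sum itself was 867 to 887 FPKM with DMSO and 885 to 904 FPKM with DADA, and these ranges overlapped. They did not overlap with each library rescaled to the same total, at 861 to 880 and 892 to 918, or with median-ratio scaling, at 859 to 882 and 891 to 908.

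Within a group, the libraries differed by 1.07% to 9.26% of the mean with DMSO and by 0.560% to 5.52% with DADA (SD over the mean, n = 4), the highest value in both being that of *Slc7a11*. By the root mean square distance of log2(FPKM + 1) profiles, each centred on its mean over the 8 libraries, the genes most like *Slc7a5* among 8188 with a mean of at least 5 FPKM were *Actg1* (0.0177), *Park7* (0.0200) and *Srpk2* (0.0204). *Actg1*, a cytoplasmic actin, went from 1867 ± 19.7 to 2192 ± 33.4 FPKM, *Park7* from 130 ± 1.65 to 147 ± 3.90 FPKM, and *Srpk2*, a kinase of splicing factors, from 11.1 ± 0.0962 to 13.0 ± 0.188 FPKM.

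Other genes of amino acid handling were described by 7 lists, in which 63 of 80 genes passed the filter on low values, and 20 of these (31.7%) were called higher and 28 (44.4%) lower with DADA, beside 30.9% and 35.3% of all genes tested. *Slc1a2* and *Mycn* were under 1 FPKM in every DMSO library and passed the filter through the DADA libraries alone, so that they had to differ, and without them 18 of 61 were called higher. The lists hold 7 to 12 tested genes each, and their counts are to be read against the same 66.2% called over all genes. Of the 19 other transporters of the cell surface, 8 passed the filter, 1 was called higher (*Slc1a2*) and 5 lower, with a median log2 fold change of -0.13, or -0.15 without *Slc1a2*. Besides *Slc7a3*, the largest fall was that of the glycine transporter gene *Slc6a9*, from 26.1 ± 1.11 to 20.5 ± 0.609 FPKM (log2 fold change -0.33). The glutamate transporter gene *Slc1a2* was low, at 0.203 ± 0.183 FPKM in the DMSO libraries and 1.82 ± 0.172 FPKM in the DADA libraries (SD, n = 4 each), and its log2 fold change of 1.24 was 2.84 with a pseudocount of 0.1. The taurine transporter gene *Slc6a6*, chosen after its values were seen, was at 44.7 ± 0.723 and 45.0 ± 0.497 FPKM and was not called (limma, adjusted p = 0.772).

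Transporters of the lysosome, which return amino acids to the cytosol, were called higher in 4 and lower in 2 of the 7 cases tested, with a median log2 fold change of 0.21. *Slc66a1*, which exports cationic amino acids, rose from 1.51 ± 0.359 to 3.15 ± 0.229 FPKM (log2 fold change 0.74), and *Ctns*, the lysosomal cystine exporter, from 2.77 ± 0.129 to 5.14 ± 0.315 FPKM (0.70). *Slc38a7* fell from 9.04 ± 0.403 to 6.58 ± 0.628 FPKM (-0.41), and *Slc36a4* from 4.05 ± 0.191 to 3.48 ± 0.371 FPKM (-0.17, limma, adjusted p = 0.0361), a call that was lost in 9 alternatives, with limma adjusted p from 0.0533 to 0.0977, and kept in the others, with p from 0.00309 to 0.0381. Of the 8 mitochondrial carriers tested, 1 was called higher and 2 lower, with a median of -0.02, the same as over all genes. *Sfxn3* had a log2 fold change of 0.27, the ornithine carrier gene *Slc25a15* one of -0.22 and the glycine carrier gene *Slc25a38* one of -0.53.

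Of the 12 enzymes tested that use the imported amino acids, 8 were called lower (66.7%, beside 35.3% of all genes tested) and 2 higher (16.7%, beside 30.9%), with a median log2 fold change of -0.28. *Odc1*, which starts polyamine synthesis from ornithine, fell from 419 ± 6.66 to 279 ± 3.93 FPKM (log2 fold change -0.58), and *Asns*, the asparagine synthetase, from 242 ± 4.21 to 166 ± 1.87 FPKM (-0.54). *Gls2*, which encodes a glutaminase of the mitochondria, went the other way, from 6.18 ± 0.650 to 10.96 ± 0.296 FPKM (0.74). Among the 7 cystine and glutathione enzymes tested, 5 were called lower and 1 higher, with a median of -0.32. *Cth*, which makes cysteine from cystathionine, fell from 118 ± 3.78 to 57.1 ± 2.03 FPKM (-1.04), and *Txnrd1*, the cytosolic thioredoxin reductase, from 105 ± 3.40 to 66.9 ± 2.81 FPKM (-0.65). *Gpx4* was the gene called higher (0.12, limma, adjusted p = 0.0232), a call that was lost without DMSO 3, DADA 1 or DADA 2, where it was 0.11, 0.11 and 0.09.

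All 12 genes of amino acid sensing upstream of mTORC1 were tested, with 6 called higher, 4 lower and a median of 0.10. *Bmt2*, which encodes the methionine-linked sensor SAMTOR, rose from 5.52 ± 0.188 to 9.23 ± 0.582 FPKM (log2 fold change 0.65) and *Castor2* from 1.90 ± 0.177 to 3.13 ± 0.170 FPKM (0.51). *Rragb* (-0.46, or -0.70 with a pseudocount of 0.1) and *Sesn1* (-0.36) fell the most. Of 9 factors known to act on these transporters, 5 were called higher, *Mycn* among them, and 2 lower, with a median of 0.33, or 0.20 without *Mycn*. *Atf4* fell from 370 ± 3.52 to 329 ± 9.42 FPKM (-0.17) and its companion *Ddit3* from 112 ± 5.36 to 87.6 ± 3.06 FPKM (-0.35). *Keap1*, the inhibitor of NRF2, rose from 19.5 ± 1.17 to 29.2 ± 0.660 FPKM (0.56). *Mycn* was low, at 0.706 ± 0.0638 FPKM in the DMSO libraries and 2.50 ± 0.0925 FPKM in the DADA libraries, and its log2 fold change of 1.04 was 1.69 with a pseudocount of 0.1. *Myc*, named after its values were seen, rose from 121 ± 4.196 to 172 ± 4.28 FPKM (0.50). The median over all genes tested was -0.02, the lists differ in size, and they were described by counts with no test of a list as a whole.

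**Figure D4:**
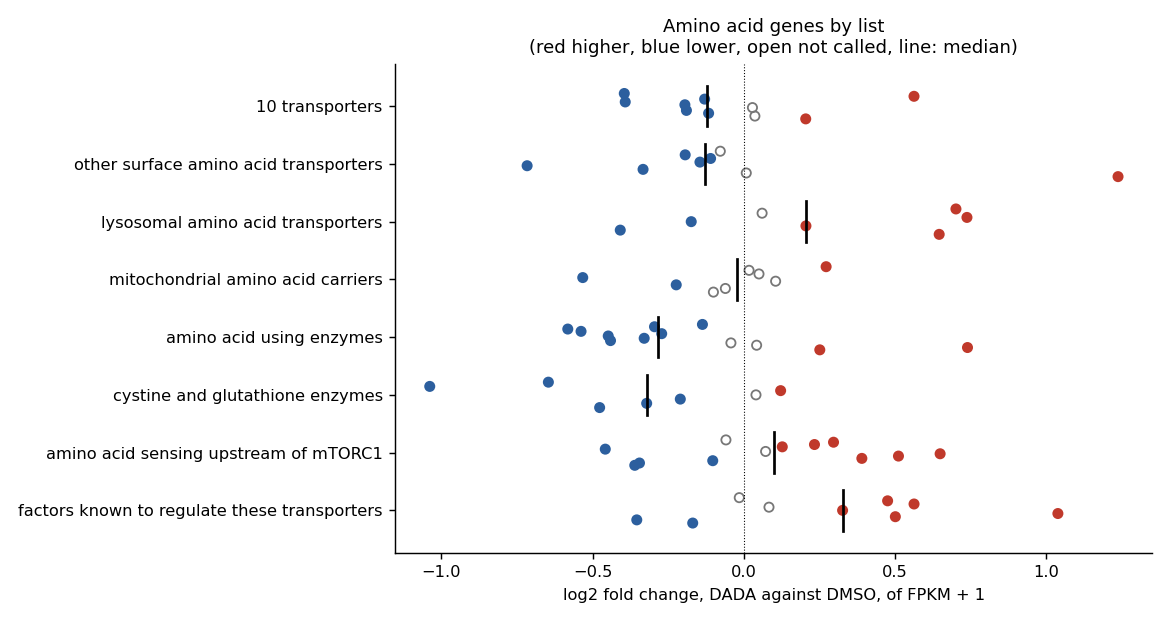
Log2 fold change of FPKM + 1 of DADA against DMSO (horizontal axis) for the 10 transporter genes and the tested genes of 7 lists, 1 point per gene. Red points were called higher, blue points lower and open points were not called, and the black lines mark the medians, which run from -0.32 for the cystine and glutathione enzymes to 0.33 for the regulating factors.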

How the data were processed

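The deposited FPKM values, 1 per gene and library, were used as they are for 4 DMSO and 4 DADA libraries. The authors sequenced paired reads of 150 bp, and the submitters' processing notes name CASAVA 1.8.2, FastQC 0.11.9, HISAT2 2.0.5, StringTie 1.3.3, Picard 1.41 and SAMtools 0.1.18 and the builds GRCh38 and GRCm39, without their roles. The labels and the methods name different library kits, and neither says whether strand was used in counting. No exon of the 10 genes overlaps another gene in GENCODE M21. At the best of many trial depths, low values lay within 0.1 of whole fragments in 39.7% to 48.2% of cases per library. Chance gives 20% at a fixed depth, and its share at the best depth was not computed. Counts were not recovered, so no count test was run, and depth is unknown.

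Genes with at least 1 FPKM in at least 4 libraries were fitted as log2(FPKM + 1) with limma 3.58.1 in R 4.3.3, with 1 term for DADA, eBayes with a trend, and p-values adjusted by Benjamini-Hochberg over every gene tested. The fit was checked on data with known changes. Ratios were compared by two-sided exact permutation tests with adjustment over 6 pairs. Named genes were the 10 members, the 2 largest called changes in each direction of each list and the 3 profiles nearest to *Slc7a5*. The members and lists were chosen with earlier results of these data known. The alternatives were a pseudocount of 0.1, no filter, a mean of at least 5 FPKM, rescaling to equal totals (TPM), median-ratio scaling, quantile normalization, no trend, the replicate number as a block and each library left out. *Trac* was not analysed here, and some list and marker genes are not reported here. Python 3.11.15, pandas 2.3.3, numpy 2.4.6 and matplotlib 3.10.9 were used.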

Additional observations from a re-analysis of the deposited data

How the results depend on the processing

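The counts of 2 genes called higher and 6 called lower stayed within 1.5 times under every alternative, and of 159 alternative log2 fold changes of the 10 genes, 150 kept their direction and their side of the threshold. The exceptions were *Slc1a4* and *Slc3a2*. The 2 other filters, no trend and the replicate block leave a log2 fold change as it is. Under these only the adjusted p could differ, so the kept direction adds nothing there. The call of *Slc1a4* was lost with TPM scaling (-0.09, limma, adjusted p = 0.0775), with median-ratio scaling (-0.10, adjusted p = 0.0521) and without DMSO 1, DMSO 2, DADA 2, DADA 3 or DADA 4 (-0.11 to -0.10, adjusted p = 0.0512 to 0.0653). *Slc3a2* changed sign with quantile normalization (-0.016, limma, adjusted p = 0.581). The difference in the summed FPKM of the 10 genes, 15.2 FPKM, moved to 34.9 with TPM scaling and 28.1 with median-ratio scaling, and under both the groups no longer overlapped. With a mean of at least 5 FPKM, 12 rather than 20 list genes were called higher, since fewer were tested. Over all genes tested, 3296 were called higher and 3768 lower. These were 3604 and 3380 with TPM scaling and 3522 and 3544 with median-ratio scaling, so the shares of 30.9% and 35.3% hold for the unscaled FPKM. Deviations of same-numbered libraries had correlations of -0.12 to 0.095 over genes, within the -0.27 to 0.13 of differently numbered libraries. No pairing by number was seen, but a weak one could be hidden by the spread between libraries. With the replicate block, 2 of the 10 genes were called higher and 6 lower, and 21 and 29 list genes. The pair differences kept their direction with FPKM + 1 in the ratios and with each library left out. The replicate block could not change them, and the other alternatives were not run for the pairs. No library stood apart in any of 34 groups of 4 values examined for the 10 genes, their ratios and their sum. The number of libraries and the unknown depth limit the precision, above all for *Slc7a11*.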
